A study of Mus musculus with 2 samples.

Results

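Gas6, Pros1, Axl, Mertk and Tyro3, the ligands and receptors of the TAM family, were described across the endothelium, the stellate cells and the macrophages of the mouse liver in the normal and the fibrotic state. The members were chosen by symbol, and their 5 rows were found among the 20468 genes listed for the normal library and the 20473 listed for the fibrosis library. Growth arrest-specific 6 (Gas6) and protein S (Pros1) are secreted proteins that need vitamin K-dependent carboxylation to bind phosphatidylserine. Gas6 bridges phosphatidylserine on dying cells to the receptor tyrosine kinases Tyro3, Axl and Mertk on the engulfing cell. Protein S acts in this way on Tyro3 and Mertk. The receptors are known for the clearance of apoptotic cells and for damping inflammatory signalling in macrophages, and protein S also acts as an anticoagulant cofactor in plasma.

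Non-parenchymal cells were isolated from livers of C57BL/6 male mice, 8 weeks old, by collagenase perfusion, removal of hepatocytes at low speed and a density gradient, and were read with a 3′ droplet kit. The normal library (quiescent state) came from olive oil injections and the fibrosis library from carbon tetrachloride (CCl4), a hepatotoxin, both given into the peritoneum 2 times a week for 6 weeks. Both groups share the strain, sex and injection schedule, and the toxin is a chemical model without a transgene. Each condition had 1 library, so condition and library cannot be told apart, and no test between the conditions was made.

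After filtering, 7471 normal and 6132 fibrosis cells were kept, with medians of 4226 and 5775.5 unique molecular identifiers (UMIs) per cell, and 15 barcodes occurred in both libraries. Cell classes were rebuilt by clustering with the members held out. They comprised 2046 normal and 1563 fibrosis endothelial-like cells (median UMIs 5812 and 7630), 65 and 123 stellate-like cells (6374 and 11421), and 378 and 528 macrophage-like cells (4227 and 13006). All normal macrophage-like cells were Kupffer-cell-like, whereas those in fibrosis were 234 Kupffer-cell-like and 294 monocyte-derived-macrophage-like cells. A normal sub-cluster of 48 cells with Cx3cr1, C1qb and Adgre1 among its leading genes stayed unnamed and outside the class. Own markers stood above the lymphoid level for 17 of 17 endothelial, 21 of 21 stellate, 12 of 12 Kupffer and 15 of 15 monocyte-derived macrophage genes. The same lists had named the clusters, so this is not an independent check. The NK/T-cell-like and B-cell-like cells together (1596 and 1333 cells, median UMIs 3164.5 and 2229), called lymphoid here, gave the background from free RNA. In these lymphoid cells the summed level of the 12 Kupffer markers was 8.2 UMIs per 10000 in the normal library and 22 in fibrosis, that of the 15 monocyte-derived macrophage markers 8.53 and 29.3, that of the 17 endothelial markers 40.4 and 63.9, and that of the 16 hepatocyte markers 307 and 30.

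Levels are UMIs of a gene per 10000 UMIs of the class, followed by an exact 95% Poisson interval, and ratios are fibrosis over normal with an exact conditional interval. These intervals cover counting error only, not the spread between animals. UMIs from 3′ ends were not scaled by length, so levels were compared between classes and conditions for 1 gene, never between genes. A ratio was called higher or lower when it passed 1.5 times in either direction with an interval that left out 1, given at least 20 UMIs over both libraries. A level at or below that of the lymphoid cells of the same library is read as background. Ratios with the lymphoid level subtracted in each library are mostly given where they end a call or turn a direction. The lymphoid level can overstate free RNA in other classes. Summed endothelial markers were 63.9 in lymphoid cells in fibrosis, but 24.5 in stellate-like and 14.1 in macrophage-like cells. In the normal library they were 40.4, 37.3 and 17.4. Subtraction may thus take away too much in those classes, and readings of background are uncertain there. Other classes can stand above the lymphoid level too, among them the erythroid-like droplets, whose fibrosis levels were 1.11 for Gas6, 2.45 for Pros1, 1.77 for Axl and 2.83 for Mertk.

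Of 15 pairs of a member and a class, 13 had enough UMIs, 3 were higher in fibrosis, 1 was lower and 9 were neither. The lower pair was Gas6 in endothelial-like cells, and the higher pairs were Gas6 in macrophage-like cells and Axl and Tyro3 in endothelial-like cells. Among all genes, the same rule called 12.6% higher and 13.2% lower in endothelial-like cells, 11% and 9.46% in stellate-like cells, and 12.8% and 14.7% in macrophage-like cells. In endothelial-like cells 2 of 5 members were thus called higher and 1 lower. In stellate-like cells none of 4 members passed, and in macrophage-like cells 1 of 4 was called higher. Both higher pairs in the endothelium lay at or below the lymphoid level in fibrosis, as described for each gene. With the lymphoid level subtracted 0 pairs were called higher and 2 lower, and Gas6 in macrophage-like cells gave no ratio because its normal level lay under the lymphoid one. Of the genes that stayed above the lymphoid level, this subtraction called 13.6% higher and 30.7% lower in endothelial-like cells, 26.6% and 19.7% in stellate-like cells and 29.1% and 34.2% in macrophage-like cells, with median ratios of 0.84, 1.16 and 0.903. As mean UMIs per cell, with the fibrosis cells deeper in each compared class, 10 pairs were called higher, and Axl and Pros1 in macrophage-like cells turned from 0.833 to 2.48 and from 0.952 to 2.83. That scaling moved all genes, with median ratios of 1.4, 1.76 and 3.00 in the 3 classes. It called 38.4% of all genes higher and 7.28% lower in endothelial-like cells, 49.8% and 3% in stellate-like cells and 86.8% and 3.35% in macrophage-like cells, so per-cell ratios are to be read against those medians.

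**Figure D1:**
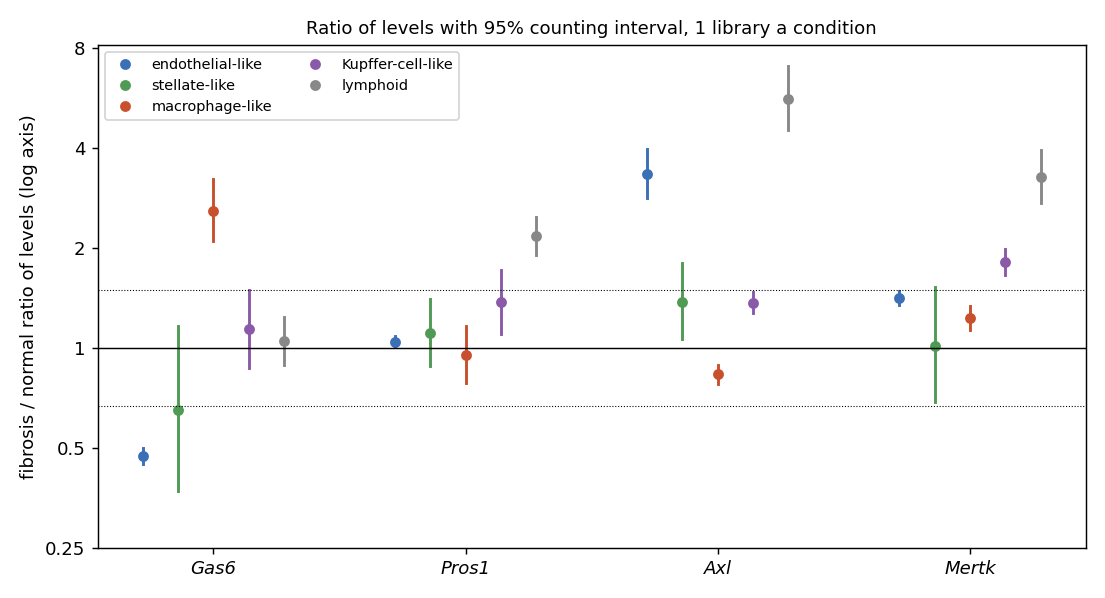
Fibrosis over normal ratio of levels (log axis) for 4 members in 5 cell classes, with 95% counting intervals; dotted lines mark 1.5 times in either direction. Gas6 lay at 0.472 in endothelial-like cells, while the lymphoid ratios of Pros1, Axl and Mertk were 2.17, 5.64 and 3.28.

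The Gas6 gene lies on chromosome 8 from 13465374 to 13494490 on the minus strand (GRCm38). In endothelial-like cells it gave 3952 UMIs in the normal library, a level of 3.19 (3.09–3.29), and 1949 UMIs in fibrosis, a level of 1.51 (1.44–1.57). The level thus fell to a ratio of 0.472 (0.447–0.499), while in lymphoid cells it was 0.588 (0.528–0.654) and 0.618 (0.543–0.7), a ratio of 1.05. After thinning each cell to 1000 UMIs, 25.3% of normal and 12.8% of fibrosis endothelial-like cells held a Gas6 UMI, against 4.71% and 5.59% of lymphoid cells. Without thinning the endothelial shares were 69.1% and 57.6%, and the lymphoid shares 14.3% and 14.6%. Taken as a whole, the endothelium stood above the lymphoid level in both conditions on either measure.

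Gas6 was not even along the sinusoid. Cells with markers of zones 2 and 3, toward the central vein, had a level of 5.51 in the normal library and 2.32 in fibrosis, a ratio of 0.421 (0.377–0.47). Cells with zone 1 markers, toward the portal tract, had 1.79 and 1.02, a ratio of 0.573. In fibrosis this value joined a sub-cluster of 272 cells at 1.32 with one of 177 cells at 0.473 (0.368–0.6). The latter lay below the lymphoid 0.618. The level was lower in fibrosis in both zones, but as mean UMIs per cell the zone 1 ratio was 0.947 and no longer called. Within the normal library zone 2/3-like cells were 3.08 times (2.75–3.47) above zone 1-like cells, and within fibrosis 2.26 times (1.98–2.59). Central vein-like cells lay close to zone 2/3-like cells, with 5.23 and 2.3, a ratio of 0.44, or 0.682 per cell, which was not called. Portal vessel-like cells had the lowest values of the named endothelial groups, 1.13 and 0.966, with a ratio of 0.856 (0.683–1.07) that was not called. That ratio was called lower per cell, at 0.635, and with the lymphoid level subtracted, at 0.644, and it was 0.44 when a shallow fibrosis sub-cluster of 147 cells was left out as well.

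**Figure D2:**
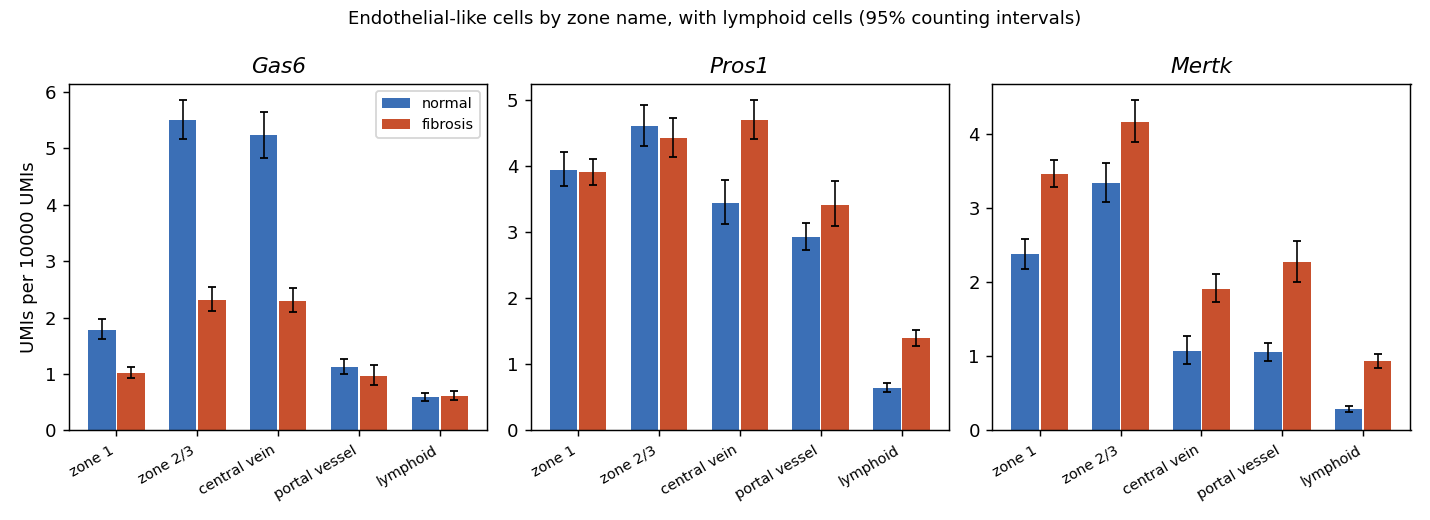
Bars give the level (UMIs per 10000 UMIs) of Gas6, Pros1 and Mertk in endothelial-like cells by zone name, with lymphoid cells for background, in the normal (blue) and fibrosis (red) libraries; error bars are 95% counting intervals. Gas6 in zone 2/3-like cells stood at 5.51 in the normal library and 2.32 in fibrosis.

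Stellate-like cells gave little Gas6, 20 UMIs at a level of 0.419 (0.256–0.648) in the normal library and 41 UMIs at 0.272 (0.195–0.369) in fibrosis. Both values lay at or below the lymphoid level, so the ratio of 0.648 (0.371–1.17) is read as one of background. Other mesenchymal and epithelial cells carried more of it. In 44 normal and 81 fibrosis portal-fibroblast-like cells the level was 19.5 and 7.63, a ratio of 0.392 (0.356–0.433), with 24.1% and 18.6% of the UMIs in the 3 highest cells and an uncalled ratio of 0.794 per cell. Mesothelial-like cells, 45 and 48 in number, had 17.5 and 16.3. Cholangiocyte-like cells, the lining of the bile ducts, had 14.2 and 10.3, a ratio of 0.721 (0.683–0.762) that did not reach the call and turned to 1.09 per cell. Of all Gas6 UMIs, cholangiocyte-like cells held 36.9% in the normal library and 19.1% in fibrosis, endothelial-like cells 32.8% and 20.1%, and stellate-like cells 0.166% and 0.4%. These shares depend on how many cells of each class were captured.

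In macrophage-like cells the Gas6 level was 0.498 (0.403–0.61) in the normal library, below the lymphoid level, and 1.29 (1.21–1.37) in fibrosis, a ratio of 2.59 (2.1–3.24). The rise lay in the class that was named only in the fibrosis library. Monocyte-derived-macrophage-like cells had 868 Gas6 UMIs at 1.64 (1.53–1.75), 2.89 times (2.42–3.47) the level of Kupffer-cell-like cells of the same library. Their 2 sub-clusters gave 1.66 and 1.59. Kupffer-cell-like cells alone had 0.498 and 0.567 (0.478–0.668), a ratio of 1.14 (0.872–1.49), with the fibrosis value below the lymphoid 0.618, so restriction to them ended the call. After thinning, 14.3% of monocyte-derived-macrophage-like cells held a Gas6 UMI, beside 5.59% of lymphoid cells in fibrosis. Macrophage-like cells as a whole held 0.781% of the Gas6 UMIs of the normal and 10.4% of those of the fibrosis library.

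Pros1 lies on chromosome 16 from 62854307 to 62929346 on the plus strand. Its level in endothelial-like cells was 3.93 (3.82–4.05) from 4881 UMIs in the normal library and 4.11 (4–4.22) from 5325 UMIs in fibrosis, a ratio of 1.05 (1.01–1.09). This ratio was 1.43 per cell and turned to 0.825 with the lymphoid level subtracted, neither of them called and both close to the median of all genes under the same scaling. Zone 1-like cells had 3.95 and 3.91, and zone 2/3-like cells 4.61 and 4.43. Their ratios of 0.991 and 0.961 turned per cell to 1.64, which was called higher, and to 1.04, which was not called. Central vein-like cells had 3.44 and 4.7, a ratio of 1.36 (1.22–1.53), and portal vessel-like cells 2.93 and 3.42, a ratio of 1.17 that turned to 0.865 per cell and 0.884 after subtraction. Neither vessel was called on the level, but the central vein ratio was 2.11 and called higher per cell. The spread of Pros1 over the endothelial zones was thus small beside that of Gas6, for which zone 2/3-like and portal vessel-like cells of the normal library lay at 5.51 and 1.13. Thinned shares of endothelial-like cells with a Pros1 UMI were 30.8% and 33.9%. The lymphoid background of Pros1 was itself higher in fibrosis, 0.644 and 1.4, a ratio of 2.17 (1.9–2.48), with thinned shares of 5.46% and 10.9%.

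Stellate-like cells held Pros1 above the lymphoid level in both conditions, with 98 UMIs at 2.06 (1.67–2.5) and 344 UMIs at 2.28 (2.05–2.54). The ratio of 1.11 (0.884–1.4) was not called. It was called lower with the lymphoid level subtracted, at 0.626, but higher per cell, at 1.85. In fibrosis the summed endothelial markers were 24.5 in stellate-like against 63.9 in lymphoid cells, so this subtraction may take away too much. Macrophage-like cells had 0.679 and 0.646, a ratio of 0.952 (0.783–1.17), close to the lymphoid level in the normal library and below it in fibrosis. The Kupffer-cell-like value of 0.933 (0.818–1.06) and the monocyte-derived-macrophage-like value of 0.508 in fibrosis were below the lymphoid 1.4 as well. Pros1 was therefore above the lymphoid level in the endothelium and the stellate cells but not in macrophages of the fibrosis library. The stellate-like level there was not clear of other classes, since erythroid-like droplets held 2.45 (2.18–2.74) and pDC-like cells 1.91. Endothelial-like cells held 63.2% of all Pros1 UMIs in the normal library and 46.2% in fibrosis.

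**Figure D3:**
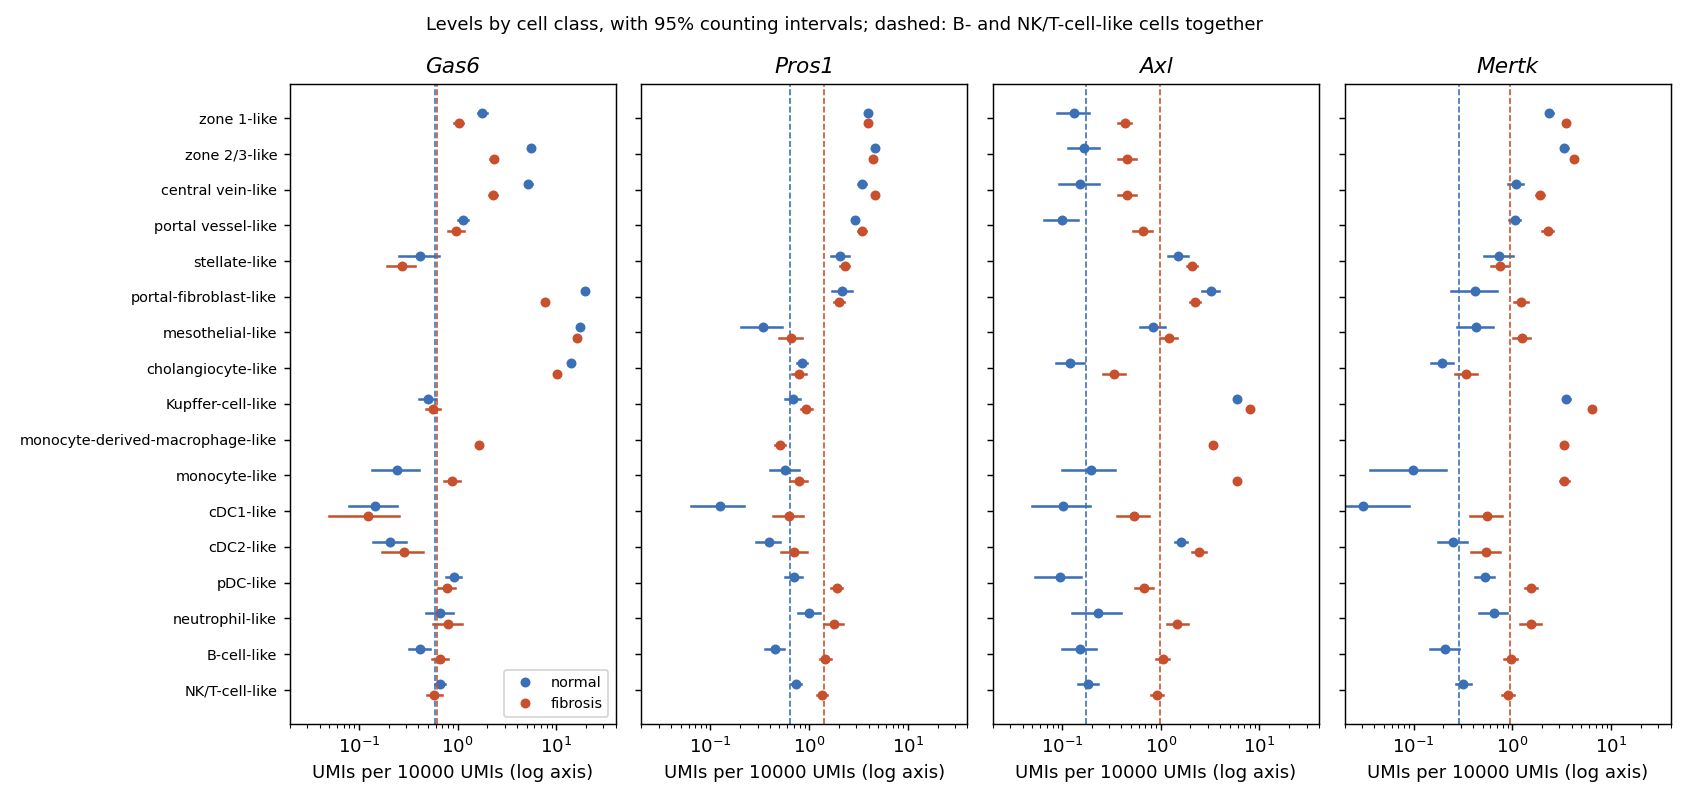
Levels of Gas6, Pros1, Axl and Mertk (UMIs per 10000 UMIs, log axis) in each cell class of the normal (blue) and fibrosis (red) libraries, with 95% counting intervals; dashed lines give the lymphoid level of each library. Axl was 0.173 in lymphoid cells of the normal and 0.975 in those of the fibrosis library, and the endothelial points of both libraries lay below these lines.

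Axl lies on chromosome 7 from 25757273 to 25788705 on the minus strand. It was led by Kupffer-cell-like cells in both libraries, at 5.9 (5.55–6.25) from 1112 UMIs in the normal and 8.06 (7.72–8.42) from 2047 UMIs in the fibrosis library. The ratio of 1.37 (1.27–1.47) stayed under the call. Over all macrophage-like cells the level was 5.9 and 4.91 (4.76–5.07), a ratio of 0.833 (0.779–0.891), so the direction turned with the make-up of the class, and it turned per cell as well, to 2.48. Monocyte-derived-macrophage-like cells had 1798 UMIs at 3.4 (3.24–3.56), 0.421 times (0.395–0.449) the Kupffer-cell-like level. Their sub-clusters, both with Gpnmb and Fabp5 among the leading genes, had 2.58 in 179 cells and 5.08 in 115 cells. Macrophage-like cells held 40.3% and 38.9% of all Axl UMIs.

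The largest Axl ratio stood in monocyte-like cells, from 12 UMIs at 0.195 to 716 UMIs at 5.92, a ratio of 30.3 (17.3–59). These clusters shared F13a1 and Ly6c2 among their leading genes. Others differed, with Ace, Tppp3 and Chil3 in 110 normal cells and Ccr2, Cx3cr1 and Tgfbi in 143 fibrosis cells. The ratio may thus set unlike cells side by side. Tppp3 was also among the leading genes of an unnamed fibrosis cluster of 360 cells, with Axl at 1.9. In cDC2-like cells Axl was 1.6 and 2.46, a ratio of 1.53 that met the call but was 1.04 with the lymphoid level subtracted and 1.13 per cell. Stellate-like cells had 72 UMIs at 1.51 (1.18–1.9) and 314 UMIs at 2.08 (1.86–2.33), a ratio of 1.38 (1.06–1.81) that was not called, and both levels were above the lymphoid ones. With these subtracted the ratio turned to 0.828, which was not called either, whereas it was called higher per cell, at 2.30, and with mixed clusters put back, at 1.58. Portal-fibroblast-like cells had 3.21 and 2.24, a ratio of 0.699 that was 0.418 and called lower after subtraction but 1.42 per cell.

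In endothelial-like cells the Axl level was 0.141 (0.121–0.164) and 0.473 (0.436–0.512), a ratio of 3.35 (2.83–3.99) that met the call. The lymphoid level rose more, from 0.173 (0.141–0.21) to 0.975 (0.881–1.08), a ratio of 5.64 (4.52–7.08). The thinned share of endothelial-like cells with an Axl UMI was 1.66% and 4.94%, against 1.57% and 11.4% of lymphoid cells. Endothelial Axl was thus at or below background in both libraries and is not read as expression or as a difference. Outside the compared classes Axl was called higher in 9 of 12 others. The share of all genes called in these classes was not computed, so this count is not read as a result about Axl. Among the 9 were B-cell-like (0.151 and 1.05), pDC-like (0.0949 and 0.678), neutrophil-like (0.233 and 1.47), cDC1-like (0.103 and 0.534), cholangiocyte-like (0.122 and 0.339) and erythroid-like cells (0.181 and 1.77). The erythroid-like droplets of the fibrosis library, 706 with a median of 1057 UMIs, had the Kupffer genes Cd5l, Marco and Clec4f among their 10 leading genes, unlike the normal ones. The macrophage markers measured in lymphoid cells moved the same way, and their part in the Axl values was not tested.

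Mertk lies on chromosome 2 from 128698956 to 128802894 on the plus strand. In Kupffer-cell-like cells its level rose from 3.52 (3.25–3.79), 663 UMIs, to 6.38 (6.07–6.69), 1619 UMIs, a ratio of 1.81 (1.66–1.99). The rule called 12% of all genes higher and 9.42% lower in these cells, and 1 of 4 members, Mertk, was called higher. Normal Kupffer-cell-like cells formed a sub-cluster of 214 cells with a median of 6797.5 UMIs and a Mertk level of 4.05, and one of 164 cells with a median of 1680 UMIs and a level of 1.11. Without the latter the ratio was 1.57 (1.43–1.73), and with the lymphoid level subtracted it was 1.68, both still called. With both steps together it was 1.44 (1.31–1.59) and no longer called. After thinning, 23.3% of normal and 44.9% of fibrosis Kupffer-cell-like cells held a Mertk UMI, beside 2.57% and 7.5% of lymphoid cells.

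Monocyte-derived-macrophage-like cells had 1762 Mertk UMIs at 3.33 (3.18–3.49), 0.522 times (0.488–0.559) the Kupffer-cell-like level of the same library. Over all macrophage-like cells the level was 3.52 and 4.32 (4.17–4.47), a ratio of 1.23 (1.13–1.34), which was not called. Monocyte-like cells had 6 UMIs at 0.0976 in the normal library, under the lymphoid level, and 408 UMIs at 3.37 in fibrosis. These are again the clusters that shared only some leading genes. Outside the compared classes Mertk was called higher in 11 of 12 others and Pros1 in 8 of 12. Gas6 was called higher in 2 of them and lower in 2. Some of these calls were lost per cell or after subtraction, such as Pros1 in neutrophil-like (1.07 to 1.31) and cDC2-like cells (1.34). The share of all genes called in these other classes was not computed, so the counts are not read as results about the members.

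Endothelial-like cells were the other main site of Mertk, with 2882 UMIs at 2.32 (2.24–2.41) in the normal and 4252 UMIs at 3.28 (3.19–3.38) in the fibrosis library. The ratio of 1.41 (1.35–1.48) stayed under 1.5 times, though per cell it was 1.93 and called, while the lymphoid background was 0.285 (0.243–0.331) and 0.935 (0.843–1.04), a ratio of 3.28 (2.73–3.96). Thinned shares were 20.8% and 25.5% of endothelial-like cells. By zone, the levels were 2.38 and 3.46 in zone 1-like cells, a ratio of 1.46, and 3.34 and 4.17 in zone 2/3-like cells, a ratio of 1.25. The vessels started lower and met the call, with 1.08 and 1.91 in central vein-like cells (1.77, 1.45–2.17) and 1.05 and 2.27 in portal vessel-like cells (2.16, 1.82–2.56). With the lymphoid level subtracted the central vein ratio was 1.23 and no longer called, and the portal one was 1.74. The portal vessel-like cells of the fibrosis library included a sub-cluster of 147 cells with a median of 2226 UMIs, C1qa among its leading genes and a Mertk level of 3.01, against 1.86 in the other 85 cells. Without it the ratio was 1.76, and 1.20 and uncalled when the lymphoid level was also subtracted. Endothelial-like cells held 56.3% of all Mertk UMIs in the normal library and 33.3% in fibrosis, and macrophage-like cells 13% and 26.5%. Of endothelial-like cells, 53.3% and 73.1% held both a Pros1 and a Mertk UMI without thinning, against 3.13% and 6.83% of lymphoid cells, at the unequal depths given above. Stellate-like cells had Mertk levels of 0.734 and 0.743, a ratio of 1.01 (0.687–1.52), above the lymphoid level in the normal library and below it in fibrosis.

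Tyro3 lies on chromosome 2 from 119797733 to 119818104 on the plus strand, and it was close to the detection limit throughout. Endothelial-like cells gave 22 UMIs at 0.0177 (0.0111–0.0268) in the normal and 45 UMIs at 0.0348 (0.0253–0.0465) in the fibrosis library. The ratio of 1.96 (1.15–3.43) met the call, but the lymphoid level was 0.0373 and 0.035, so the endothelial values are read as background. The call was lost in sinusoidal cells alone, at 1.75. Stellate-like cells had 0 UMIs in the normal library, which at a limit of 3 counts allows a level of up to 0.0629, and 8 in fibrosis. Macrophage-like cells had 0 UMIs in the normal library, a limit of 0.0159, and 5 in fibrosis, all outside the Kupffer-cell-like cells, whose limit was 0.0118.

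The order of levels set the members apart from each other. Among classes of at least 50 cells, Gas6 was led by cholangiocyte-like cells in both libraries. Next came zone 2/3-like and central vein-like cells in the normal library, with overlapping intervals, and portal-fibroblast-like cells in fibrosis. The size limit left out mesothelial-like cells (17.5 and 16.3) and, in the normal library only, portal-fibroblast-like cells (19.5), which all had higher Gas6 levels. It also left out the Axl level of the latter, 3.21. Pros1 was led by endothelial classes in both libraries, with overlapping intervals between neighbours in the order. Axl was led by Kupffer-cell-like cells, followed in the normal library by cDC2-like and stellate-like cells, which overlapped, and in fibrosis by monocyte-like and then monocyte-derived-macrophage-like cells. Mertk in the normal library was led by Kupffer-cell-like and zone 2/3-like cells with overlapping intervals, whereas in fibrosis the Kupffer-cell-like level stood clear of the next.

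Cells of the stellate clusters that also carried markers of another class were kept apart, and their levels of Gas6, Pros1, Axl and Mertk lay between those of the 2 classes. The cells with endothelial markers, 46 in the normal library and 131 in fibrosis, had Gas6 levels of 2.64 and 1.31 and Mertk levels of 2.25 and 2.49, all above the stellate-like values. In the 62 fibrosis cells with myeloid markers, Axl was 2.95 and Mertk 2.24.

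The wider pathway was followed in 6 lists with 51 genes other than the members: carboxylation of the ligands, receptor shedding, other phosphatidylserine receptors and bridges, engulfment, phosphatidylserine exposure, and signalling below the receptors. A gene entered when it reached 0.1 UMIs per 10000 in either library. In endothelial-like cells 14 of 45 were called higher and none lower, with a median ratio of 1.24 beside 1.03 over all genes, of which 10.1% were called higher and 10.6% lower. Only 4 of the 14 lay above the lymphoid level in fibrosis, the lipid-sensing receptor Pparg, Calu, Twist1 and the engulfment factor Dock1, named after their values were seen. Calu encodes calumenin, an inhibitor of the vitamin K-dependent carboxylation system, and stood at 2.19 and 3.99, a ratio of 1.82, while its lymphoid level was 0.739 and 2.03, a ratio of 2.75. Twist1, a transcription factor known to be induced by Axl signalling, stood at 0.781 and 1.38, with lymphoid levels of 0.11 and 0.448. With the lymphoid level subtracted the ratios were 1.35 for Calu, 1.4 for Twist1 and 1.39 for Dock1, and 1 of the 14 genes, Pparg at 2.32, stayed past 1.5 times. Of the other phosphatidylserine receptors and bridges 8 of 11 were called higher, and none of the 8 exceeded the lymphoid level in fibrosis.

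The largest ratios in endothelial-like cells were in genes of that background. Trem2, a lipid receptor of macrophages, stood at 0.0137 and 0.327, a ratio of 23.8, with 0.665 in lymphoid cells of the fibrosis library. Cd300ld and Itgb5 followed at 4.91 and 4.9, also below the lymphoid level. Among the smallest ratios were 0.764 for Socs3 and 0.816 for the liver X receptor Nr1h2, which were not called.

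In Kupffer-cell-like cells 18 of 44 listed genes were called higher and none lower, with a median of 1.31 beside 1.08, while 12.7% of all genes were called higher and 10.3% lower. Of the 18, 10 lay above the lymphoid level in fibrosis, and 7 stayed past 1.5 times with that level subtracted. Trem2 led at 0.626 and 3.76, a ratio of 6.01. Itgb3 and Mfge8 had ratios of 4.31 and 3.58, but both lay below the lymphoid level. Both receptor-shedding proteases were called, with Adam10 at 1.97 and 3.33 (1.69) and Adam17 at 1.68 and 2.58 (1.53), though the latter was 1.47 after subtraction, and Abca1, a cholesterol exporter of engulfing cells, stood at 3.53 and 6.86 (1.94). Among the smallest ratios, which were not called, were 0.608 for Socs1 and 0.751 for Timd4, the phosphatidylserine receptor of resident Kupffer cells, at 4.23 and 3.18.

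**Figure D4:**
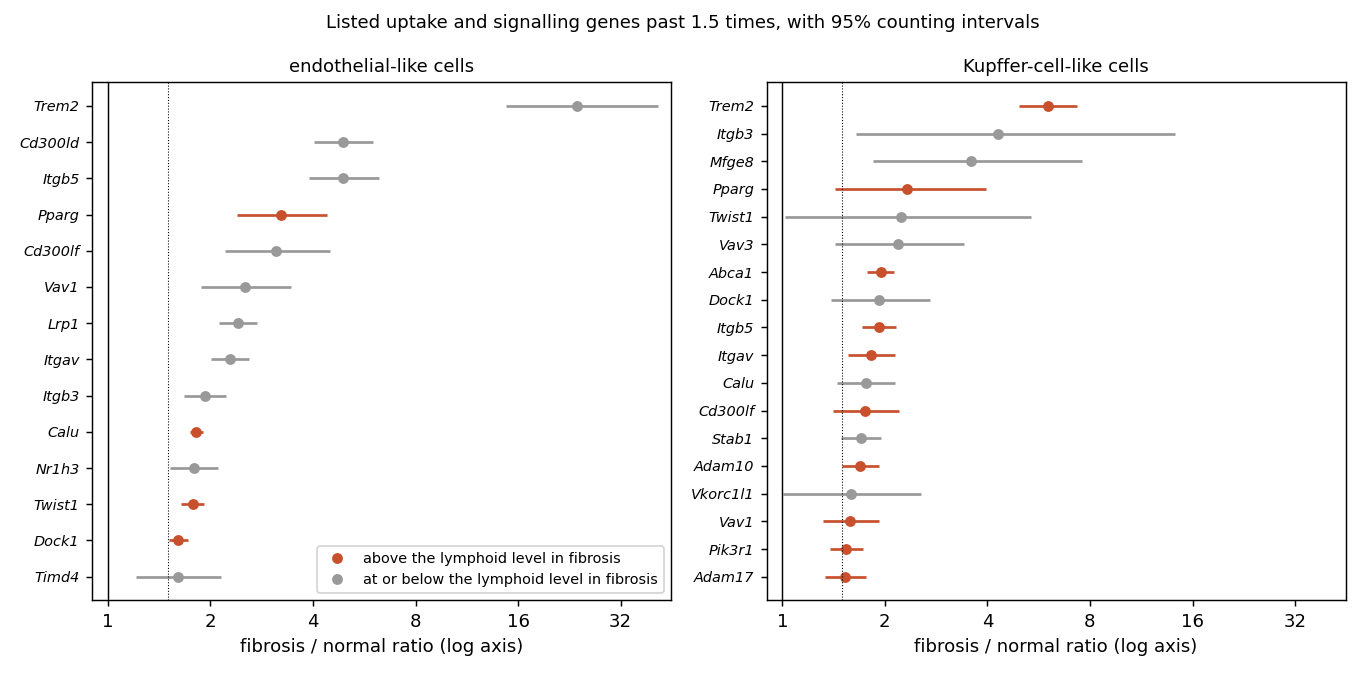
Fibrosis over normal ratio (log axis) with 95% counting intervals for the listed pathway genes that were called in endothelial-like (14 genes) and Kupffer-cell-like cells (18 genes); the dotted line marks 1.5 times. Red points, 4 in the endothelium and 10 in Kupffer-cell-like cells, lay above the lymphoid level in fibrosis, and grey points did not.

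Over all macrophage-like cells 11 of 43 listed genes were called higher and 7 lower, with a median of 1.17 beside 1.005 and with 13.7% and 16.5% of all genes called. The largest ratios were 14.3 (12–17.3) for Trem2, at 0.626 and 8.97, 13.4 for the bridging protein Mfge8, at 0.0583 and 0.784, and 3.87 for Pparg. The normal Mfge8 level lay below the lymphoid 0.324 and the fibrosis level above the lymphoid 0.648, so it had no subtracted ratio. Timd4 fell from 4.23 to 1.09, a ratio of 0.257, and Ptk2 had a ratio of 0.437 with its fibrosis level below the lymphoid one. After subtraction 5 of the 11 higher genes had a ratio, 4 of them past 1.5 times, and 2 of the 7 lower genes had one, both past it. The fibrosis value of this class included the monocyte-derived-macrophage-like cells, which were not named in the normal library.

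In stellate-like cells 9 of 47 listed genes were called higher and 5 lower, with a median of 1.15 beside 1.02, and 10.3% and 11.5% of all genes were called. Of the 9, 6 lay above the lymphoid level in fibrosis, and 4 of the 9 and 2 of the 5 stayed past 1.5 times with that level subtracted. Calu rose from 2.91 to 6.75 (2.32), the integrin subunit Itgb5 from 1.3 to 3.29 (2.53) and Mfge8 from 3.04 to 5.3 (1.74). By size the first 3 were Twist2, at 3.16 and not called, Trem2, with 0 UMIs in the normal library and thus at least 3.16-fold higher against a floor of 3 counts in that library, and Cd300ld at 3.12, the last pair below the lymphoid level. The smallest ratios were 0.38 for Itgb3, from 1.97 to 0.749, 0.46 for the scavenger receptor Stab2 and 0.499 for the lipid transporter Abca7, of which Stab2 and Abca7 lay below the lymphoid level in both libraries and are read as background.

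The genes whose levels followed each member most closely were found over 37 points of a class and a library among 8629 genes, by Pearson's r of log2 levels. The points share libraries and free RNA, so r is given as a description. Gas6 was followed by Ypel2 (0.886), Ift43 (0.832), Trim32 (0.827), Ldhb (0.82) and Zfp462 (0.811). Pros1 was followed by Inpp5a (0.96), Man2a1 (0.957), the endothelial transcription factor Gata4 (0.952) and Msrb3 (0.947). The genes closest to Axl were Lpl (0.92), which encodes lipoprotein lipase, Zfp703 (0.903), Itgb5 (0.897), Acp2 (0.895) and Lrp1 (0.89). Those closest to Mertk were Tpp1 (0.923), a lysosomal protease, Rab3il1 (0.915), Tmcc3 (0.904), Plod1 (0.899) and Gna12 (0.895). The values were highest for Pros1 and lowest for Gas6, and Tyro3 was too low for the measure.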

How the data were processed

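The deposited matrices hold raw UMI counts per gene and cell, which the authors made with Cell Ranger 3.0.1 on mm10. The fibrosis matrix holds 6437 barcodes, the number the study states, and the normal one 8130. Cells with under 10% mitochondrial UMIs and over 200 genes were kept (6132 and 7471). Each library was clustered separately (scanpy 1.11.5, 2000 variable genes, 10 components, resolution 0.8) with 56 member and pathway genes held out, and clusters were named from 22 marker lists. The naming rule was refined after cluster marker genes were seen. Clusters carrying markers of another class were left out of the 3 compared classes, and the highest doublet scores were removed only as an alternative. Zones are named from marker genes, not from position. Counts were summed per class, with exact Poisson and conditional intervals (scipy 1.17.1), and shares were taken after thinning to 1000 UMIs. With 1 library per condition there was no test, and p-values are not given. The calls were tested on simulated counts of endothelial-like cells only. There all 200 genes with a true fold of 4 were recovered, and 2 of 9074 unchanged genes were called. The members and lists were chosen with earlier results of these data known. Named genes were the members, per member the 5 genes of highest Pearson r, and per class the 3 largest and 3 smallest ratios of the pathway lists, some of which are not reported here. Gene positions are from GENCODE (GRCm38). Across the compared classes 13 alternatives were planned, not all of which gave a value for each member, and further ones were added after the data were seen.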

Additional observations from a re-analysis of the deposited data

Results flagged for a closer look

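The Gas6 ratio (fibrosis over normal) was 0.472 in endothelial-like and 2.59 in macrophage-like cells, opposite directions, and the first divided by the second was 0.182. This difference was not tested, since each condition had 1 library. The normal macrophage-like cells were all Kupffer-cell-like, and in Kupffer-cell-like cells alone the ratio was 1.14.

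The Axl ratio was 3.35 in endothelial-like and 0.833 in macrophage-like cells, a quotient of 4.02, and this was not tested either. The endothelial levels lay at or below the lymphoid ones in both libraries. The Axl ratio of 1.38 in stellate-like cells divided by that of macrophage-like cells gave 1.66, again untested. With the lymphoid level subtracted the stellate ratio was 0.828 and the macrophage ratio 0.688, both below 1. In Kupffer-cell-like cells alone the Axl ratio was 1.37.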

How the results depend on the processing

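Gas6 in endothelial-like cells was called lower under all 13 other settings (0.342 to 0.646), and Mertk in Kupffer-cell-like cells was called higher under 12 of 13 (1.44 to 3.94). Gas6 in macrophage-like cells ranged from 1.14 to 7.71. Using mean UMIs per cell, which carries the greater depth of the fibrosis cells, Pros1 in endothelial-like cells was 1.43, Axl in endothelial-like cells 4.58, Mertk in macrophage-like cells 3.65, Axl and Pros1 in macrophage-like cells turned to 2.48 and 2.83, and 10 pairs were called higher. With the lymphoid level subtracted, Pros1 in endothelial-like cells was 0.825 and Mertk in macrophage-like cells 1.05. Then 0 pairs were called higher and 2 lower, Gas6 in endothelial-like and Pros1 in stellate-like cells. The latter was 0.626, but it was 1.85 and called higher per cell. Axl in endothelial-like cells and Gas6 in stellate-like and macrophage-like cells gave no value because a level fell below 0. With a mitochondrial limit of 5%, Gas6 in stellate-like cells was 2.29, from 13 and 34 cells, and Mertk in macrophage-like cells 1.08, and with no limit Pros1 in endothelial-like cells was 1.09. With sinusoidal and Kupffer-cell-like cells only, Pros1 was 0.941 and Mertk 1.81, and Mertk was 1.57 when the shallow normal sub-cluster was also left out, an alternative chosen after seeing the data. With mixed clusters put back into their classes 2 pairs were called lower (Gas6 in endothelial-like and stellate-like cells) and 4 higher, Axl in stellate-like cells being gained at 1.58. Per cell, Pros1 in erythroid-like cells went from 1.6 to 0.989. The subtraction and the per-cell values for zones and other classes were also added after seeing the data. No paired analysis was possible because each condition has 1 library. Low counts limit Tyro3 in all classes and Gas6 in stellate-like cells, and no setting gives the spread between animals.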
